A study of Mus musculus with 9 samples.

Results

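Plasma cell differentiation was followed here through 6 genes, Prdm1, Irf4, Mzb1, Sdc1, Eaf2 and Txndc5, which were taken by gene symbol from a table of 56860 genes. All 6 had counts in every library and all 6 passed the filter on low counts, as did 19348 genes in all. RNA was sequenced from mouse spleen cells labelled CD4+ T cells in 9 libraries from CIA mice treated with luteolin, a plant flavone, from CIA mice without it and from control mice, with 3 libraries each, so that the treated mice carry CIA as well. Strain, age, dose and duration are not given in the sources used here, and nor is it stated whether the replicates of a group are separate animals, so a p-value here is set against the variation among samples, which may be technical. The title of the series names Th17 differentiation and RA as its subject.

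Plasma cells are the antibody-secreting end stage of the B cell lineage. In activated B cells the transcription factor IRF4 is known to induce Blimp-1, the repressor encoded by Prdm1, which shuts down B cell genes such as Pax5 and permits the expression of Xbp1, the factor that enlarges the endoplasmic reticulum (ER) for antibody secretion. Mzb1 and Txndc5 encode ER proteins that serve folding and assembly of secreted proteins, Eaf2 encodes a partner of the ELL elongation factors, and Sdc1 encodes syndecan-1 (CD138), the surface proteoglycan by which plasma cells are commonly sorted. Several of these genes are also used outside the lineage: IRF4 and Blimp-1 act in activated and regulatory T cells, and syndecan-1 is abundant on epithelia.

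The libraries held 33436951 to 41815573 counts in CIA with luteolin, 31851523 to 35670309 in CIA and 31234177 to 40553934 in control, and the 6 genes had between 92 and 4866 counts in a library. Levels are given in CPM, library-size scaled counts after TMM normalisation, as mean ± SD with n = 3. Cd4 itself, which marks the labelled cell type, was at 104 ± 4.57 CPM in CIA with luteolin, 128 ± 39.6 CPM in CIA and 2.92 ± 0.639 CPM in control. The control libraries thus held little of the marker that defines their label. Comparisons against control are therefore of the libraries as labelled, in which the condition and a difference in the cells collected cannot be told apart. Transcripts of the B lineage were present in libraries of all 3 groups. The summed level of 10 B cell markers was 436 to 539 CPM in CIA with luteolin, 308 to 1824 CPM in CIA and 2127 to 2216 CPM in control. Of the marker lists summed, this one differed most between the 3 CIA libraries, with sums of 1824, 1051 and 308 CPM in replicates 1, 2 and 3. Immunoglobulin constant genes, 12 in all, summed to 6783 to 7703 CPM in CIA with luteolin, 2912 to 4200 CPM in CIA and 4673 to 4812 CPM in control. Neutrophil genes, 9 in all, summed to 7646 to 8120 CPM in CIA with luteolin, 5579 to 9723 CPM in CIA and 1800 to 2218 CPM in control. Single genes differed more than this sum, with 5 called higher and 4 lower with luteolin against CIA. Mpo averaged 261 CPM in CIA with luteolin and 1.54 CPM in CIA, and Ngp 2268 and 262 CPM. Mmp9 went the other way, at 50.8 CPM in CIA with luteolin and 173 CPM in CIA. Of 10 plasma cell markers 1, Tnfrsf17, was at 0 in all control libraries. In such bulk samples fewer cells of a type and less RNA per cell cannot be told apart, and the part of cell composition in the differences below was not tested.

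Compared per kilobase of exonic length (RPKM), Mzb1 had the highest mean level of the 6 genes in every group, at 23.4 ± 1.18 in CIA with luteolin, 30.5 ± 10.7 in CIA and 40.2 ± 5.58 in control. Irf4 came second, at 14.0 ± 0.216 in CIA with luteolin, 19.6 ± 7.47 in CIA and 25.4 ± 2.61 in control. Txndc5 followed at 13.5 ± 0.231 in CIA with luteolin, 11.8 ± 3.03 in CIA and 13.5 ± 1.12 in control. The order of the low genes differed between groups: Sdc1, at 6.25 ± 0.384 RPKM, stood above Prdm1 at 3.19 ± 0.141 RPKM in CIA with luteolin. In CIA Prdm1 was at 4.38 ± 0.628 RPKM and Sdc1, at 1.08 ± 0.487, had the lowest mean. In control Prdm1, at 3.09 ± 0.264, and Sdc1, at 2.81 ± 0.225 RPKM, overlapped. Eaf2 was at 1.03 ± 0.0792 in CIA with luteolin, 1.36 ± 0.112 in CIA and 1.24 ± 0.172 in control. In CIA the ranges over libraries of Mzb1 and Irf4 overlapped, as did those of Irf4 and Txndc5, but in each of the 3 CIA libraries Mzb1 was above Irf4 and Irf4 above Txndc5.

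**Figure D1:**
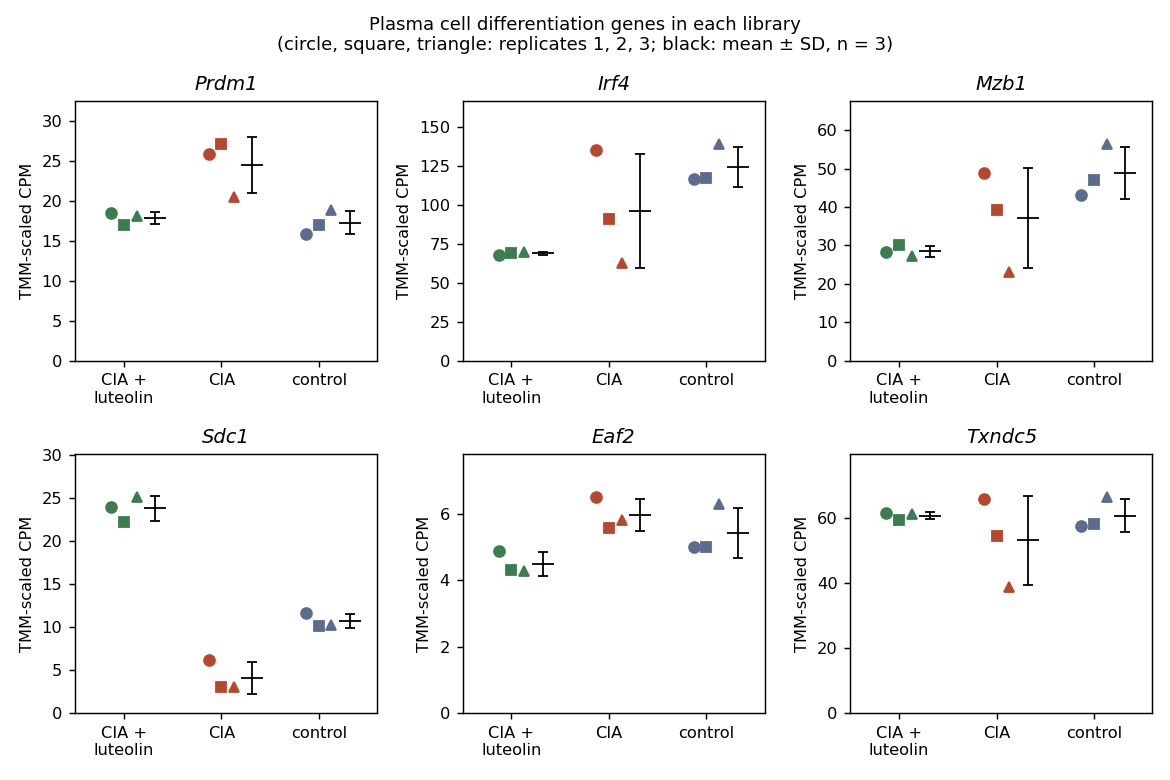
TMM-scaled CPM of each of the 6 genes in the 9 libraries, with groups from left to right CIA with luteolin, CIA and control, symbols for replicates, and the mean ± SD (n = 3) in black. Sdc1 lies between 22.2 and 25.1 CPM with luteolin and at or below 6.25 CPM in CIA, while Irf4 and Mzb1 spread widely across the CIA libraries.

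The promoters of Prdm1 and Sdc1, called in opposite directions in CIA against control, and a promoter of Txndc5 are shown from RefSeq on build GRCm38.p6, from 250 bases before to 50 bases after the annotated start, read 5′ to 3′ on the strand of the gene. Promoters of 5 of the 6 genes were used, in 9 windows, since Eaf2 and Txndc5 have 3 each. Capitals mark matches, on either strand, to the letters searched. These were the core TGACGTG of the unfolded protein response element to which XBP1 is known to bind, the parts CCACG and, separately, CCAAT of the ER stress element, the core GAAANNGAA of the interferon-stimulated response element that IRF factors bind, and AGNGAAAG, a sequence of the type bound by Blimp-1. In the Txndc5 window the match of TGACGTG overlaps a match of CCACG on the reverse strand.
Prdm1 (chr10:44458699-44458998, minus strand): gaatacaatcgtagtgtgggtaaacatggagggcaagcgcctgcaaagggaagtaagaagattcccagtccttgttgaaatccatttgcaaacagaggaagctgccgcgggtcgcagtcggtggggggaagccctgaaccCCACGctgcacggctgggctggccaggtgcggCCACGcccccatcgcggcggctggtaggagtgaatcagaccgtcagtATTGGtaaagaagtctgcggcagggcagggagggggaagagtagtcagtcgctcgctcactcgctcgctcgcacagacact
Sdc1 (chr12:8771146-8771445, plus strand): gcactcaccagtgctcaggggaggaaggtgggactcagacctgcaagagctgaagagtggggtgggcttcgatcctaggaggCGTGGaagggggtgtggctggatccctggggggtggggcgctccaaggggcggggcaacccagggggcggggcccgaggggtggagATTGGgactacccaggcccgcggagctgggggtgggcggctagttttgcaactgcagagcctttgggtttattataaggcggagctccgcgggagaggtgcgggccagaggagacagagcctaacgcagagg
Txndc5 (chr13:38527865-38528164, minus strand): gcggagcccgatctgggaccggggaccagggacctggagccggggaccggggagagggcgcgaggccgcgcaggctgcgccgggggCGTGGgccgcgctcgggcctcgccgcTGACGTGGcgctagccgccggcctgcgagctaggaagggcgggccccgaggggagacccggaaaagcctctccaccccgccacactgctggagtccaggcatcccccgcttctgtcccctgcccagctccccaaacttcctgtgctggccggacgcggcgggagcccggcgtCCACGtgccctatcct

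Of 32851 promoter windows of this length, 2.01% hold TGACGTG, and among the 9 windows it was found only in the Txndc5 window above, starting 138 bases before the annotated start. The shorter part CCACG is held by 32.8% of all windows and was found in those of Prdm1, Sdc1 and Irf4 and in 2 of 3 of Txndc5. The part CCAAT is held by 37.4% and was found in Prdm1, Sdc1 and all 3 windows of Eaf2. GAAANNGAA, in 8.56% of all windows, matched only another window of Txndc5, and AGNGAAAG, in 8.63%, matched the remaining one. These matches describe letters, and no binding was measured.

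Among the transcription factors, Irf4 (chromosome 13, 30933209 to 30950959 on build mm39, as are all positions from the count table) had its lowest mean with luteolin, with 67.7, 69.0 and 69.8 CPM in CIA with luteolin, 135, 90.8 and 62.7 CPM in CIA and 116, 118 and 139 CPM in control, in the order of replicates 1 to 3. The treated libraries all lay below the control libraries, whereas the CIA libraries spanned both. In CIA with luteolin against control Irf4 fell by 0.85 on the log2 scale (SE 0.21, adjusted p = 0.00807 by edgeR's quasi-likelihood test with Benjamini-Hochberg adjustment, used for all comparisons). In CIA against control the change was -0.37 ± 0.21 (adjusted p = 0.170, 95% interval -0.84 to 0.10) and in CIA with luteolin against CIA it was -0.48 ± 0.21 (adjusted p = 0.0855, interval -0.96 to -0.01), and neither passed. Both depend on single CIA libraries. Without CIA replicate 1, the library highest in B cell markers, Irf4 was called lower in CIA than in control (-0.70 ± 0.14, adjusted p = 0.00148), and in CIA with luteolin against CIA its change was -0.15. Without CIA replicate 3, the lowest in those markers, it was called lower with luteolin than in CIA (-0.72 ± 0.13, adjusted p = 0.000634), and in CIA against control its change was -0.13.

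Prdm1 (chromosome 10, 44313173 to 44404497), whose product Blimp-1 is the repressor that fixes plasma cell fate, was highest in CIA. It had 18.4, 16.9 and 18.1 CPM in CIA with luteolin, 25.8, 27.1 and 20.4 CPM in CIA and 15.9, 17.0 and 18.8 CPM in control. Every CIA library was above every library of the other 2 groups. Prdm1 rose in CIA against control by 0.50 ± 0.12 (adjusted p = 0.00547), a 1.42-fold difference, and fell with luteolin against CIA by 0.46 (SE 0.12, adjusted p = 0.00967). The second call was lost without CIA with luteolin replicate 2 (-0.37 ± 0.14, adjusted p = 0.0683). Between CIA with luteolin and control the change was 0.05 ± 0.12 (adjusted p = 0.772, interval -0.22 to 0.31). The 2 changes of opposite sign share the CIA libraries and are not independent of each other. In the same CIA libraries the summed level of 10 markers of CD4+ T cells was 307, 489 and 515 CPM in replicates 1 to 3. Prdm1 was lowest in replicate 3, where this sum was highest. The sum was 155 to 174 CPM in control and 330 to 354 CPM in CIA with luteolin, groups that overlapped in Prdm1. The part of these cells in the Prdm1 result was not tested.

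Eaf2 (chromosome 16, 36613246 to 36695365), which encodes a subunit that stimulates transcription elongation with ELL factors, had low counts, 144 to 206 in CIA with luteolin, 176 to 234 in CIA and 195 to 200 in control. It had 4.89, 4.30 and 4.28 CPM in CIA with luteolin, 6.50, 5.56 and 5.82 CPM in CIA and 5.002, 4.995 and 6.298 CPM in control. The 3 treated libraries were the lowest of the 9. Eaf2 fell with luteolin against CIA by 0.41 (SE 0.14, adjusted p = 0.0378), a call close to the threshold, which was lost under 10 of 15 alternative settings. In CIA with luteolin against control it changed by -0.27 ± 0.14 (adjusted p = 0.151, interval -0.59 to 0.05), and in CIA against control by 0.14 ± 0.14 (adjusted p = 0.444, interval -0.18 to 0.45).

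Mzb1 (chromosome 18, 35780320 to 35782420), an ER protein known to assist the chaperone Grp94 and the assembly of IgM, had 28.29, 29.999 and 27.14 CPM in CIA with luteolin, 48.9, 39.2 and 23.2 CPM in CIA and 43.2, 46.9 and 56.4 CPM in control. As for Irf4, the treated libraries lay below all control libraries and the CIA libraries reached across both groups. Mzb1 fell in CIA with luteolin against control by 0.78 (SE 0.22, adjusted p = 0.0136), a call lost without CIA with luteolin replicate 3 (-0.74 ± 0.26, adjusted p = 0.0530) and without control replicate 3 (-0.66 ± 0.24, adjusted p = 0.0570). It changed by -0.39 ± 0.22 in CIA against control (adjusted p = 0.149) and by -0.38 ± 0.22 in CIA with luteolin against CIA (adjusted p = 0.170). Without CIA replicate 1 it was called lower in CIA than in control (-0.65 ± 0.19, adjusted p = 0.0127), and without CIA replicate 3 lower with luteolin than in CIA (-0.63 ± 0.12, adjusted p = 0.000788). Of the 1215 exonic bases of Mzb1, 57.2% are shared with the gene model Gm50318 on the same strand, so reads over those bases cannot be assigned to one of them. The count of Gm50318 was 78.6% to 84.1% of that of Mzb1 in CIA with luteolin, 79.8% to 81.9% in CIA and 89.6% to 98.5% in control. Gm50318 was called lower both in CIA against control (-0.63 ± 0.21, adjusted p = 0.0264) and in CIA with luteolin against control (-1.01 ± 0.21, adjusted p = 0.00283). With 1 library left out at a time the first change ran from -0.88 to -0.39. It was not called with only the 6 libraries compared or without CIA replicate 2, control replicate 2 or control replicate 3.

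Txndc5 (chromosome 13, 38684055 to 38712800), a thioredoxin-domain protein disulfide isomerase, had 61.4, 59.5 and 61.2 CPM in CIA with luteolin, 66.0, 54.5 and 38.9 CPM in CIA and 57.4, 58.1 and 66.5 CPM in control. The groups overlapped in each comparison and none of the 3 tests passed. The changes were 0.19 ± 0.16 in CIA with luteolin against CIA (adjusted p = 0.337, interval -0.15 to 0.54), 0.00 ± 0.16 in CIA with luteolin against control (adjusted p = 0.993, interval -0.34 to 0.35) and -0.19 ± 0.16 in CIA against control (adjusted p = 0.330, interval -0.54 to 0.16). Without CIA replicate 1 Txndc5 was called higher with luteolin than in CIA (0.38 ± 0.13, adjusted p = 0.0285) and lower in CIA than in control (-0.38 ± 0.13, adjusted p = 0.0266). Other genes overlap 11.9% of its exonic bases, all on the opposite strand, and whether the counting used strand is not given in the sources used here.

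Sdc1 (chromosome 12, 8821323 to 8843715) differed between all 3 groups and had the largest changes of the 6 genes. It had 24.02, 22.25 and 25.15 CPM in CIA with luteolin, 6.25, 3.04 and 3.04 CPM in CIA and 11.7, 10.1 and 10.3 CPM in control. No library of one group overlapped another group. Sdc1 rose with luteolin against CIA by 2.52 ± 0.24 (adjusted p = 1.77e-05), a 5.75-fold difference, and against control by 1.15 ± 0.22 (adjusted p = 0.00197), a 2.22-fold difference. It fell in CIA against control by 1.37 (SE 0.24, adjusted p = 0.000903), a 2.59-fold difference. All 3 calls held under each of the 15 alternative settings, with changes of 2.35 to 2.97 with luteolin against CIA, 1.11 to 1.25 with luteolin against control and -1.82 to -1.20 in CIA against control. In the same libraries the summed level of 6 genes of dividing cells was 2219 to 2284 CPM in CIA with luteolin, 357 to 472 CPM in CIA and 1238 to 1277 CPM in control. All 6 were called higher with luteolin than in CIA and lower in CIA than in control. The sum of 8 macrophage genes was 589 to 687 CPM in CIA with luteolin, 167 to 216 CPM in CIA and 249.99 to 321 CPM in control, with all 8 called higher with luteolin than in CIA. The sum of 8 stromal and epithelial genes was 21.7 to 28.5 CPM in CIA with luteolin, 20.1 to 27.9 CPM in CIA and 17.96 to 25.10 CPM in control. The part of these cells in the Sdc1 result was not tested.

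**Figure D2:**
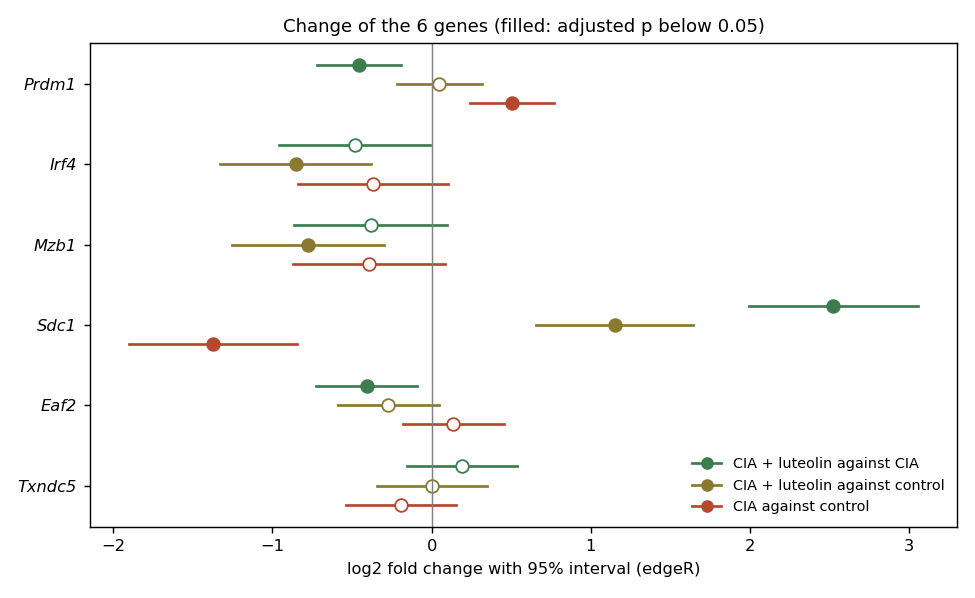
Log2 fold change of each gene with its 95% interval from edgeR in CIA with luteolin against CIA, CIA with luteolin against control and CIA against control, with filled points past an adjusted p of 0.05. Sdc1 is at 2.52, 1.15 and -1.37, and the other 5 genes lie between -0.85 and 0.50.

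The shares of the 6 genes that were called lay near those of all tested genes for so few genes, some above and some below. In CIA against control 1 of 6 was called higher and 1 lower, where 26.6% of all tested genes were called higher and 24.5% lower, and 2 of 6 had groups that did not overlap, against 58.7% of all genes. In CIA with luteolin against CIA 1 of 6 was called higher and 2 lower, beside 23.1% and 24.2% of all genes, and 3 of 6 did not overlap, against 55.7%. In CIA with luteolin against control 1 of 6 was called higher and 2 lower, beside 24.2% and 20.8%, and 4 of 6 did not overlap, against 63.3%. Median log2 fold changes of the 6 were -0.28, -0.40 and -0.13 in these comparisons, and those of all tested genes were -0.015, -0.040 and -0.012. Each pair of comparisons shares 1 group of libraries.

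A wider list of 28 plasma cell genes, covering ER folding and secretion factors, surface receptors and regulators, rose more often than it fell with luteolin. In CIA with luteolin against CIA 16 of 27 tested genes rose and 3 fell, with a median log2 fold change of 0.65, and in CIA with luteolin against control 15 rose and 4 fell, with a median of 0.42. In CIA against control 7 rose and 15 fell, with a median of -0.37. Of all tested genes 23.1% rose and 24.2% fell with luteolin against CIA. The shares were 24.2% and 20.8% with luteolin against control, and 26.6% and 24.5% in CIA against control. They apply to the counts of the following lists as well. The lists were chosen with earlier results of these data known, so the shares are given as a setting and not as a test. Some genes stand in more than 1 list. Pdia4 is also in the list of protein disulfide isomerases, and Ell2 in that of the partners of Eaf2. Sdf2l1, a partner of the ER chaperone BiP, averaged 15.0 ± 0.569 CPM in CIA with luteolin, 3.77 ± 0.463 CPM in CIA and 6.93 ± 0.426 CPM in control. It rose with luteolin against CIA by 1.99 ± 0.12 (adjusted p = 9.00e-07). Creld2, another gene of ER protein folding, rose by 1.22 ± 0.07 in that comparison, and Hsp90b1, which encodes Grp94, rose by 1.03 ± 0.07. The 3 genes of the list that fell in it were Cxcr4, with a change of -1.11, Itga4 with -0.80 and Zbtb20 with -0.36. Receptors and regulators of the list differed. Slamf7 rose by 1.82 and Cd38 by 1.07, while Tnfrsf13b (-0.06), Pou2af1 (-0.21) and Bhlha15 (0.36) were not called. Without CIA replicate 3 the call of each of these last genes changed. With luteolin against control Tnfrsf13b changed by -1.31 and Pou2af1 by -1.18. Ly6c2, a surface protein of plasma cells and also of monocytes, had 46.1, 41.7 and 47.9 CPM in CIA with luteolin, 3.53, 3.66 and 6.75 CPM in CIA and 7.10, 5.35 and 6.42 CPM in control, and rose with luteolin against CIA by 3.29 ± 0.23. In CIA against control Slamf7, a receptor of plasma cells and other leukocytes, fell by 1.67 (SE 0.24, adjusted p = 0.000297), while Itga4, an integrin chain shared by many leukocytes, rose by 1.11 ± 0.08. The sums of dividing and macrophage genes given with Sdc1 moved in the same libraries, and their part in these counts was not tested.

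Xbp1 did not differ between groups in the way Sdc1 did. It had 359, 314 and 294 CPM in CIA with luteolin, 306, 297 and 376 CPM in CIA and 177, 174 and 173 CPM in control. The libraries of both CIA groups overlapped and all lay above those of control. Xbp1 rose in CIA against control by 0.90 ± 0.10 (adjusted p = 9.00e-05) and in CIA with luteolin against control by 0.89 ± 0.10 (adjusted p = 8.83e-05). With luteolin against CIA the change was -0.02 ± 0.10 (adjusted p = 0.907, interval -0.25 to 0.21). Jchain, the chain that joins polymeric IgM and IgA, had 122, 117 and 136 CPM in CIA with luteolin, 37.4, 52.1 and 60.5 CPM in CIA and 22.86, 26.07 and 23.99 CPM in control. The groups did not overlap, and Jchain rose with luteolin against CIA (1.32 ± 0.15, adjusted p = 6.04e-05) and in CIA against control (1.04 ± 0.15, adjusted p = 0.000341). The filter left out Tnfrsf17, the BCMA receptor on which plasma cell survival depends, with 2, 8 and 4 counts in CIA with luteolin, 0, 2 and 0 in CIA and 0 in each control library. A count of 0 allows up to 3 counts in a library, for counting error alone and only if counts are independent.

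Among 12 immunoglobulin constant genes, 7 rose and 0 fell with luteolin against CIA, with a median of 0.90. In CIA with luteolin against control 6 rose and 3 fell, with a median of 0.36, and in CIA against control 1 rose and 8 fell, with a median of -0.80. Ighm, the IgM heavy chain, averaged 4045 ± 331 CPM in CIA with luteolin, 1918 ± 452 CPM in CIA and 2637 ± 82.5 CPM in control. It rose with luteolin against CIA by 1.08 ± 0.14 (adjusted p = 0.000146). Its lower level in CIA than in control (-0.46 ± 0.14, adjusted p = 0.0182) was not called without CIA replicate 2 or without control replicate 1. With 1 library left out at a time that change ran from -0.66 to -0.30. Igkc, the kappa light chain, averaged 1826 ± 110.3 CPM in CIA with luteolin, 989 ± 31.9 CPM in CIA and 888 ± 13.5 CPM in control, and rose with luteolin against CIA by 0.88 ± 0.06. Ighd and the lambda genes Iglc2 and Iglc3 went the other way. They averaged 36.1, 57.5 and 54.0 CPM in CIA with luteolin, 40.6, 93.2 and 92.0 CPM in CIA and 207, 163 and 190 CPM in control. Their changes with luteolin against control were -2.52, -1.50 and -1.82, and against CIA they were not called. The class-switched genes Ighg2c and Igha rose with luteolin against CIA by 2.05 ± 0.10 and 2.16 ± 0.16. Igha, which encodes the IgA heavy chain, also rose in CIA against control (0.61 ± 0.16, adjusted p = 0.0103), where Ighg2c fell by 0.80 (SE 0.09). Reads of the similar IgG genes can be split between them by the counting. The summed constant genes moved in the libraries in which Sdc1 moved, with 6783 CPM or more in CIA with luteolin and 4200 CPM or less in CIA.

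Of 18 genes of the mature B cell stage 8 fell, 0 rose and 10 did not pass in CIA with luteolin against CIA, with a median of -0.99, and 15 fell and 1 rose in CIA with luteolin against control, with a median of -2.05. In CIA against control 10 fell and 3 rose, also with a median of -0.99. The values against CIA rest on CIA libraries that differ widely in B cell markers. With luteolin against CIA the call of Cd22, an inhibitory B cell receptor, was lost under 7 of 15 settings and that of Cd79a under 6. The change of Ms4a1, which encodes CD20, ran from -0.91 to 0.23 with 1 library left out at a time. Those of Blk, Spib and Ciita also took either sign. Pax5, the B cell identity factor that Blimp-1 represses, had 119, 121 and 96.0 CPM in CIA with luteolin, 410, 230 and 67.9 CPM in CIA and 450, 417 and 419 CPM in control. The CIA libraries spanned almost the whole range, as they did for Irf4 and Mzb1. Pax5 fell with luteolin against control by 1.94 (SE 0.46, adjusted p = 0.00593), and its changes with luteolin against CIA (-1.07 ± 0.45, adjusted p = 0.0712) and in CIA against control (-0.86 ± 0.45, adjusted p = 0.129) did not pass. With 1 library left out at a time these ran from -1.52 to -0.40 and from -1.53 to -0.42. Each was called with no filter on low counts, the first also without CIA replicate 3 and the second also without CIA replicate 1. Cd79a, a chain of the B cell receptor, fell with luteolin against control by 2.15 (SE 0.33, adjusted p = 0.000479). Bach2, which represses Prdm1 in B cells, averaged 34.9 ± 2.24 CPM in CIA with luteolin, 74.0 ± 34.2 CPM in CIA and 121 ± 10.5 CPM in control. It fell with luteolin against CIA by 1.09 (SE 0.27, adjusted p = 0.00699) and against control by 1.79 (SE 0.27, adjusted p = 0.000444), and its lower call in CIA against control (-0.70 ± 0.26, adjusted p = 0.0452) was lost under 8 of 15 alternative settings.

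Bcl6, the germinal centre repressor that opposes Blimp-1 and also acts in follicular helper T cells, was highest in CIA. It averaged 24.7 ± 1.41 CPM in CIA with luteolin, 84.1 ± 15.8 CPM in CIA and 24.6 ± 0.241 CPM in control. It fell with luteolin against CIA by 1.77 (SE 0.12, adjusted p = 1.99e-06) and rose in CIA against control by 1.77 ± 0.12 (adjusted p = 5.45e-06). Prdm1 was likewise highest in CIA, with its smaller changes of -0.46 and 0.50.

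**Figure D3:**
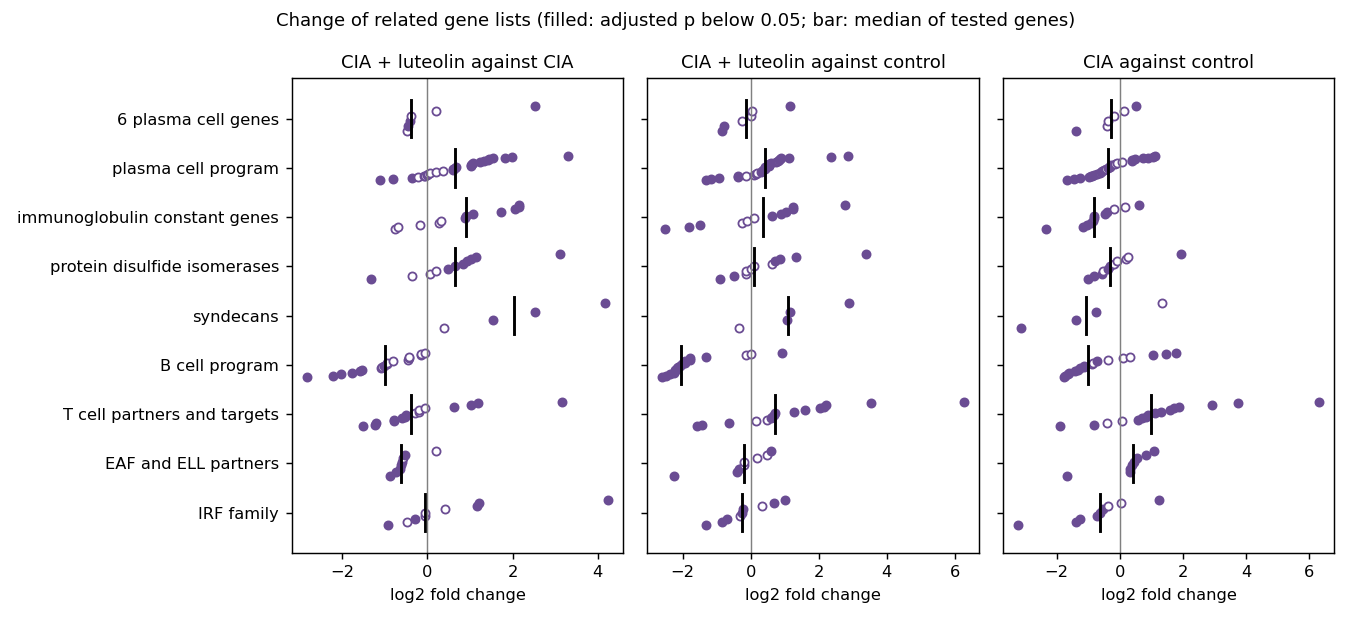
Log2 fold changes of the tested genes of each list, 1 point a gene, with the list's median, in CIA with luteolin against CIA, CIA with luteolin against control and CIA against control. The plasma cell list has medians of 0.65, 0.42 and -0.37 and the B cell list of -0.99, -2.05 and -0.99.

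Among the relatives of Sdc1, 4 syndecans with Sdc1 itself were measured, of which 3 rose and 0 fell with luteolin against CIA, and in CIA against control 0 rose and 3 fell. Sdc3, a syndecan known from neurons and macrophages, averaged 42.9 ± 5.27 CPM in CIA with luteolin, 2.37 ± 0.819 CPM in CIA and 20.7 ± 1.62 CPM in control, with changes of 4.18 ± 0.22 with luteolin against CIA and -3.12 ± 0.22 in CIA against control. Sdc2, at 0.821 ± 0.118 CPM in CIA with luteolin, 0.284 ± 0.155 CPM in CIA and 0.109 ± 0.0516 CPM in control, rose with luteolin against CIA (1.53 ± 0.46, adjusted p = 0.0185). With 1 library left out at a time this change was 1.15 to 1.92, and it was not called without CIA with luteolin replicate 2. Sdc4 changed by 0.38 ± 0.26 with luteolin against CIA (adjusted p = 0.244). Its lower call in CIA against control (-0.75 ± 0.26, adjusted p = 0.0332) was lost with only the 6 libraries compared and without CIA replicate 2 or any 1 of the control libraries. With 1 library left out at a time that change ran from -1.20 to -0.48.

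Of 11 genes of the protein disulfide isomerase list, which includes Txndc5, 7 rose and 1 fell with luteolin against CIA (median 0.65), 4 rose and 2 fell with luteolin against control (median 0.091), and 1 rose and 5 fell in CIA against control (median -0.32). P4hb, the founding isomerase, averaged 493 ± 23.1 CPM in CIA with luteolin, 224 ± 45.6 CPM in CIA and 195 ± 2.65 CPM in control, and rose with luteolin against CIA by 1.14 ± 0.12. Pdia6 rose by 1.01 ± 0.07 and Pdia5, at 2.98 ± 0.242 CPM in CIA with luteolin, 0.346 ± 0.158 CPM in CIA and 0.277 ± 0.237 CPM in control, by 3.11 ± 0.46. Txndc5 was among the 3 genes of the list that did not pass.

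Of the 9 interferon regulatory factors, which share a DNA-binding domain with IRF4, 3 rose and 2 fell with luteolin against CIA (median -0.055), 2 rose and 5 fell with luteolin against control (median -0.26), and 1 rose and 6 fell in CIA against control (median -0.64). In the first comparison 23.1% of all tested genes rose and 24.2% fell, so the counts of this short list are near those shares. Irf7, an interferon-induced activator of type I interferon genes, averaged 213 ± 17.6 CPM in CIA with luteolin, 11.3 ± 2.42 CPM in CIA and 105 ± 4.47 CPM in control. It rose with luteolin against CIA by 4.24 ± 0.15 and fell in CIA against control by 3.22 (SE 0.14). Irf1 averaged 197 ± 10.2 CPM in CIA with luteolin, 85.2 ± 2.21 CPM in CIA and 122 ± 3.80 CPM in control, and rose with luteolin against CIA by 1.21 ± 0.07. Irf4, with -0.48, was not called in that comparison. Of the genes named beside the 6, Slamf7 (9.24% of exonic bases), Pax5 (8.6%), Itga4 (8.04%), Sdc3 (7.73%) and Bach2 (5.4%) overlap genes on the opposite strand, and reads over the overlapping bases may belong to either gene. The partner of Bach2, Bach2os, held 17% as many counts as Bach2. Other named genes have smaller overlaps. For Irf7 1.19% of exonic bases overlap, with Phrf1, which held 254% as many counts. For Eaf1 it is 2.53%, with Mettl6, which held 78.8% as many. Cdk9 shares 3.36% of its exonic bases with gene models on the same strand.

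The profiles of the 6 genes across the 9 libraries were compared by the mean absolute difference of their log2 levels (with a prior of 0.5 CPM), each centred on its own mean, where 0 means the same profile. Irf4 and Mzb1 were closest to each other, at 0.0795, followed by Prdm1 and Eaf2 at 0.160. Sdc1 was far from all others, at 0.791 from Txndc5 to 1.07 from Irf4. Among 9608 genes with a mean of at least 5 CPM, the nearest to Sdc1 were Kif14 at 0.0904, Nuf2 at 0.148 and Mki67 at 0.152, each a gene of cell division. Mki67, the proliferation marker, averaged 1446 ± 14.9 CPM in CIA with luteolin, 253 ± 33.4 CPM in CIA and 756 ± 6.62 CPM in control. The nearest to Irf4 were Maml3 at 0.04999, Bcl9l (which overlaps other genes on the opposite strand over 9.65% of its exonic bases, among them Cxcr5 with 96.7% as many counts) at 0.0519 and Ero1b at 0.0689, and the nearest to Mzb1 were Cep68 at 0.0515, Sipa1 at 0.0637 and Pxk at 0.0711. Usp45 at 0.0627, Spef1 at 0.0747 and Mta3 at 0.0748 were nearest to Prdm1, Hif1an at 0.0532, Trim28 at 0.0570 and Zfx (6.62% overlapped likewise) at 0.0570 to Eaf2, and Fam53a at 0.0592, Actr8 at 0.0701 and Smc5 at 0.0702 to Txndc5. The points share their libraries and groups, and the values are a description without a test.

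**Figure D4:**
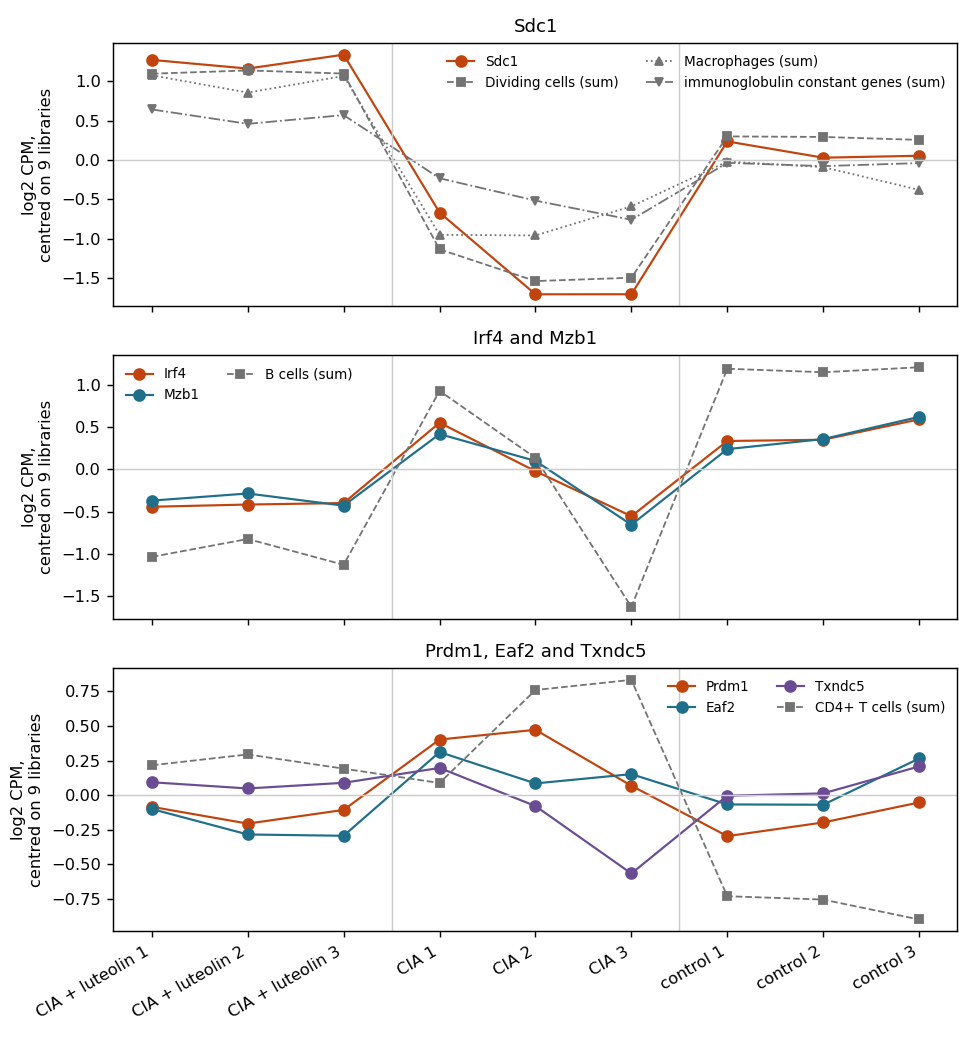
Log2 CPM of the 6 genes (coloured) and summed CPM of marker lists (grey), each centred on its own mean over the 9 libraries, with CIA with luteolin at the left, CIA in the middle and control at the right. Sdc1 and the dividing, macrophage and immunoglobulin sums are highest with luteolin and lowest in CIA, while Irf4, Mzb1 and the B cell sum (1824, 1051 and 308 CPM in CIA replicates 1, 2 and 3) are spread most widely within CIA.

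Set beside the B cell transcript Cd79a, whose level was 26.2 CPM in CIA with luteolin, 52.8 CPM in CIA and 116 CPM in control on average, the order of the groups changed for some of the 6 genes. A gene that differs less between groups than Cd79a does has its lowest ratio in control by construction. Such an order therefore follows from Cd79a and is not a separate result about the gene. The ratio of Sdc1 to Cd79a was 0.749 to 1.12 in CIA with luteolin, 0.0571 to 0.127 in CIA and 0.0841 to 0.106 in control. CIA and control libraries overlapped in this ratio, although Sdc1 itself was lower in CIA. The ratio of Irf4 to Cd79a was 2.32 to 3.10 in CIA with luteolin, 1.67 to 2.61 in CIA and 1.02 to 1.13 in control, so that Irf4, with its lowest mean CPM under luteolin, was lowest in control relative to Cd79a. The ratio of Mzb1 to Cd79a was 1.01 to 1.21 in CIA with luteolin, 0.603 to 0.964 in CIA and 0.391 to 0.459 in control. That of Prdm1 was 0.569 to 0.805 in CIA with luteolin, 0.317 to 0.850 in CIA and 0.144 to 0.153 in control, so that CIA with luteolin and CIA, which did not overlap in Prdm1 CPM, overlapped in this ratio. The ratio of Eaf2 to Cd79a was 0.145 to 0.190 in CIA with luteolin, 0.0801 to 0.242 in CIA and 0.0432 to 0.0513 in control, and that of Txndc5 was 2.003 to 2.72 in CIA with luteolin, 0.812 to 1.62 in CIA and 0.502 to 0.542 in control. These ratios are given without a test, since T cells and other cells also transcribe Irf4 and Prdm1.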

How the data were processed

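RNA of spleen cells labelled CD4+ T cells was sequenced in 9 libraries. The deposited values are read counts per gene; per the submitters' processing notes and the labels' protocols the authors trimmed reads with Trimmomatic 0.36, aligned them with STRA 2.5.3a and counted exonic reads with featureCounts of Subread 1.5.1, and used edgeR 3.12.1. The notes name build mm39, while the protocol names CHOK1GS. Positions in the count table are given as mm39. Even numbers made up 73.4% of the counts between 1 and 10 and 52.8% of those between 201 and 1000. Counting each read of a pair can leave such a pattern, which was not tested, so a count may not be a fragment. The members and lists were chosen with earlier results of these data known.

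Here counts were scaled by TMM (factors 0.950 to 1.02), filtered by filterByExpr and tested with edgeR 4.0.16 (quasi-likelihood, 2-sided, all 9 libraries, group as the term) in R 4.3.3, with Benjamini-Hochberg adjustment over 19348 genes and a threshold of 0.05. Log2 fold changes are given ± SE, intervals are 95%. From each list the 4 genes with the smallest p in each comparison could be named, with Xbp1, Jchain, Tnfrsf17, Pax5, Bach2, Bcl6, Cd79a, Ighm and Igkc always. The plasma cell genes that fell with luteolin against CIA were named as well. Cd38, Tnfrsf13b, Pou2af1, Bhlha15, Ighd, Iglc2 and Iglc3 were also named, after their values were seen. The procedure was tested on simulated counts with 200 changed genes, fewer than were called here, so that test does not cover data like these. Alternatives were DESeq2 1.42.0, library size only, other filters, only the 6 libraries compared, the replicate block and leaving out each library. No 2 libraries of 1 group agreed within sampling noise.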

Additional observations from a re-analysis of the deposited data

How the results depend on the processing

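Each gene's change was recomputed under 15 alternatives, giving 270 values, of which 242 kept their direction and their side of the threshold. The calls of Sdc1 in all 3 comparisons, of Prdm1 in CIA against control and of Irf4 in CIA with luteolin against control held in each of them. With no filter on low counts the changes of Irf4 (-0.46 with luteolin against CIA, -0.37 in CIA against control) and Mzb1 (-0.36 and -0.40) passed, that of Eaf2 with luteolin against CIA (-0.38) did not, and 3 of the 6 genes were called lower in CIA against control. The Eaf2 change was -0.37 both with library size only and with only the 6 libraries compared, and was not called, which left 1 gene lower with luteolin against CIA. Why these calls moved was not tested.

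With 1 library left out at a time, 1 to 4 of the 6 genes were called lower in CIA against control, 0 to 4 with luteolin against CIA and 1 to 2 with luteolin against control, and the number called higher with luteolin against CIA was 1 to 2. Plasma cell genes called lower were 3 to 5 with luteolin against CIA and 2 to 5 against control. In CIA against control Irf4 ranged from -0.70 to -0.13, Mzb1 from -0.65 to -0.14 and Txndc5 from -0.38 to -0.0052. With luteolin against CIA Irf4 ranged from -0.72 to -0.15, Mzb1 from -0.63 to -0.13, Txndc5 from 0.0077 to 0.38, Prdm1 from -0.57 to -0.37 and Eaf2 from -0.47 to -0.33. With luteolin against control Mzb1 ranged from -0.86 to -0.66, Prdm1 from -0.0069 to 0.14 and Txndc5 from -0.036 to 0.072, the last 2 crossing 0 without a call.

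The labels give replicate numbers without a shared animal, so the main fit did not take the numbers as pairs. Same-numbered libraries deviated together weakly (r from -0.032 to 0.224 over genes). Each library still correlated best with its own number in 6 of 6 cases in CIA against control, 4 of 6 with luteolin against CIA and 6 of 6 with luteolin against control. What same-numbered libraries share is not given in the sources used here and was not tested. With the replicate block 9148 genes were called with luteolin against CIA, the same number as without it, of which 8812 were called in both fits. There Sdc1 changed by 2.58 and Prdm1 by -0.45, and Txndc5 with luteolin against control was -0.0021, of opposite sign and not called. No call among the 6 genes changed with the block.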

Other observations

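Of 8 partners of Eaf2 in transcription elongation, which encode EAF and ELL factors, AFF scaffolds and P-TEFb, 0 rose and 6 fell in CIA with luteolin against CIA (median -0.61), 1 rose and 3 fell with luteolin against control (median -0.19), and 7 rose and 1 fell in CIA against control (median 0.41). Cdk9, the kinase of P-TEFb, averaged 47.6 ± 1.64 CPM in CIA with luteolin, 87.0 ± 9.73 CPM in CIA and 60.1 ± 4.49 CPM in control, and fell with luteolin against CIA by 0.87 (SE 0.10, adjusted p = 5.18e-05 by edgeR). Aff4, the scaffold of the super elongation complex, fell by 0.74 (SE 0.08). Ell3 was the exception in CIA against control, where it fell by 1.68 (SE 0.38, adjusted p = 0.00414). Its levels were 5.48 ± 0.375 CPM in CIA with luteolin, 8.07 ± 5.26 CPM in CIA and 26.0 ± 2.21 CPM in control. The call of Eaf1 with luteolin against CIA was lost under 8 of 15 settings, with a change of -0.79 to -0.25 when 1 library was left out. The higher call of Ell2 in CIA against control was lost under 7, and that of Aff1 under 4. When 1 library was left out their changes were 0.19 to 0.50 for Ell2 and 0.18 to 0.41 for Aff1. With luteolin against CIA, Ell2 changed by 0.20 ± 0.13 (adjusted p = 0.237), the sign opposite to that of the list's median.

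Irf4 and Prdm1 also act in T cells. Of 16 genes that are partners or targets of these factors there, 4 rose and 7 fell with luteolin against CIA (median -0.39), 11 rose and 3 fell with luteolin against control (median 0.70), and 12 rose and 2 fell in CIA against control (median 0.9998). In the first comparison 23.1% of all tested genes rose and 24.2% fell. Foxp3, the regulatory T cell factor, averaged 71.9 ± 3.30 CPM in CIA with luteolin, 31.4 ± 5.39 CPM in CIA and 17.4 ± 1.35 CPM in control, and rose with luteolin against CIA by 1.198 ± 0.123 (adjusted p = 2.95e-05). Batf3 also rose, by 3.16, from a low mean of 1.12 CPM in CIA. Among the genes that fell in that comparison were Jund, with a change of -1.51, and Tbx21, with -1.21. Il21, a cytokine of follicular helper T cells that promotes plasma cell formation, averaged 30.8 ± 3.93 CPM in CIA with luteolin, 32.1 ± 8.02 CPM in CIA and 0.405 ± 0.0996 CPM in control, and changed by -0.06 ± 0.18 with luteolin against CIA (adjusted p = 0.809). In the same libraries the sum of 10 CD4+ T cell markers was 330 to 354 CPM in CIA with luteolin, 307 to 515 CPM in CIA and 155 to 174 CPM in control, and its part in these differences was not tested.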
